A study of Homo sapiens with 4 samples.

Results

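Read-through genes are annotated genes whose transcripts run from one gene into its neighbour on the same strand and are spliced into a single RNA, and they are named by the hyphenated names of the joined genes. They were taken as the rows of the deposited table whose gene description holds the word readthrough and whose TPM, a length-scaled share of a library's transcripts, was at least 1 in at least 1 library, so the members were chosen by their TPM in these libraries. Of 58174 genes, 117 were described as read-through and 81 of these met the TPM minimum. The other 36 stayed under 1 TPM in every library, and 12 of them were listed at 0 in all. Around the minimum, TRIM6-TRIM34 had a highest TPM of 1.07, POC1B-GALNT4 1.20 and STX16-NPEPL1 1.36, while TNFSF12-TNFSF13 at 0.928, TMX2-CTNND1 at 0.748 and FPGT-TNNI3K at 0.631 fell outside.

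RNA polymerase II normally transcribes past the polyadenylation signal of a gene, where the new RNA is cleaved and a nuclease then removes the polymerase. Where cleavage is skipped, the polymerase can continue into the next gene, and splicing can join an upstream donor site to a downstream acceptor site. Some of these RNAs encode fusion proteins, whereas others hold an early stop codon and are candidates for nonsense-mediated decay (NMD), the pathway that degrades such messages. In the gene descriptions, 23 of the 81 were marked as NMD candidates and 3 as transcribed pseudogenes.

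The 4 libraries were total RNA from H1299 and HCC827 cells, collected at 48 h after an siRNA to CDH3 (siCDH3), or the control siRNA (siCTR), was transfected. Both are established human lung cancer lines, H1299 a non-small cell carcinoma taken from a lymph node and HCC827 an adenocarcinoma. CDH3 encodes P-cadherin, an adhesion protein of epithelial cells, and the knockdown was transient. The groups were H1299 siCDH3, H1299 siCTR, HCC827 siCDH3 and HCC827 siCTR, with 1 library each, so differences within a line could not be checked in replicates and have no p-value. TPM keeps no read depth, so the depth behind each value is unknown.

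CDH3 itself had 0.169 TPM in H1299 siCDH3 and 1.21 TPM in H1299 siCTR, and 78.8 TPM in HCC827 siCDH3 against 172.7 TPM in HCC827 siCTR. Its level was therefore low in H1299 even with the control siRNA. The TPM columns summed to between 999859 and 999943. Mitochondrially encoded genes took 16.4% of TPM in H1299 siCDH3, 13.5% in H1299 siCTR, 34.4% in HCC827 siCDH3 and 36.2% in HCC827 siCTR. Of 6 epithelial markers, 3 reached 1 TPM in each H1299 library and 6 in each HCC827 library, and EPCAM and CDH1 were under 1 TPM in both H1299 libraries. Of 4 mesenchymal markers, 4 reached 1 TPM in each H1299 library and 2 in each HCC827 library. Vimentin (VIM), a mesenchymal filament, had 5059.8 and 5149 TPM in H1299 siCDH3 and siCTR, and 8.20 and 9.64 TPM in HCC827 siCDH3 and siCTR. FN1, also on that list, did not separate the lines. It had 88.1 and 119 TPM in H1299 siCDH3 and siCTR, and 119 and 96.8 TPM in HCC827 siCDH3 and siCTR. Of the leukocyte, endothelial and fibroblast markers, 1 of 6, 0 of 5 and 1 of 5 reached 1 TPM in both H1299 libraries. The leukocyte marker was CD68, at 122 TPM in each, while PTPRC and CD3E were at 0 there. In HCC827, 1 leukocyte marker reached 1 TPM in siCDH3 and 2 in siCTR, with 1 endothelial and 1 fibroblast marker in each library. CD68 had 142 TPM in HCC827 siCDH3 and 121 in HCC827 siCTR, CD14 0.887 and 1.12, and PECAM1 1.19 and 1.29.

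At most members, what marks the read-through RNA is the splice junction between the joined genes, because most of the other bases belong to a neighbour. The joining junctions of 8 members that the results turn on are shown with 15 bases on each side, in lower case before the junction and in capitals after it. The lower-case bases lie in exons of the upstream gene, and the capitals lie in exons of the downstream gene at 7 of the 8. At SENP3-EIF4A1 the exon after the junction reaches an EIF4A1 exon only further along, and the capitals shown lie in no EIF4A1 exon. They are GENCODE release 29 transcripts on GRCh38, written along the transcript.
SENP3-EIF4A1: ctgcaaactcactgtCCAGGGGAATCCTCC
RTEL1-TNFRSF6B: ctggccagagccccaCAAGGACCATGAGGG
C7orf55-LUC7L2: aatttcatggcaaggGAGATACAACTCGTC
ISY1-RAB43: cagaaggctcctgggCTGCAGATCTGGGAC
NEDD8-MDP1: cagtggcaagcagatTGATGGAACTGTACG
MINOS1-NBL1: tgcacagcaacttctGGCTCTGGAGGCCAC
TMEM189-UBE2V1: tctgcatcaccacagGAGTAAAAGTCCCTC
PRR5-ARHGAP8: attcctgcatcctggAGCTGCAGAGAGACA

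On the plus strand, the joining introns run between the exon edges chr17:7571479-7572284 for SENP3-EIF4A1, chr20:63695854-63696760 for RTEL1-TNFRSF6B, chr7:139345621-139376062 for C7orf55-LUC7L2, chr1:19600971-19655012 for MINOS1-NBL1 and chr22:44735162-44786457 for PRR5-ARHGAP8. On the minus strand they run between chr3:129095169-129130088 for ISY1-RAB43, chr14:24215662-24218133 for NEDD8-MDP1 and chr20:50096820-50127975 for TMEM189-UBE2V1. Their lengths differ widely, at 804 bases for SENP3-EIF4A1, 905 for RTEL1-TNFRSF6B and 2470 for NEDD8-MDP1, against 54040 for MINOS1-NBL1 and 51294 for PRR5-ARHGAP8. Of these 8 junctions, those of RTEL1-TNFRSF6B and MINOS1-NBL1 lie outside coding sequence on both sides, and the other 6 join coding sequence on both sides.

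The annotation shows how little of most read-through genes is their own. Of the 81 members, 80 were found in GENCODE release 29, and their exons covered a median of 2667 bases (range 695 to 11385). A median of 33.3% of these bases lay in exons of the upstream partner and 53.4% in exons of the downstream partner. A median of 3.30% (range 0 to 65.0%) was unshared, lying in no exon of any other gene annotated over the member on its strand. At RTEL1-TNFRSF6B 37.7% of bases were unshared, and 24 members had no unshared base. Each of the 80 had at least 1 splice junction that no transcript of those other genes holds. The median was 3, and 21 members had exactly 1. A junction that joins the 2 genes directly was found for 71 members, with an intron of 752 to 122683 bases (median 13360). The starts were also often shared: of 54 members with a RefSeq start for both, 25 began at the same position as the upstream partner and 43 within 300 bases of it. A read in a shared exon does not tell which gene it came from, so each member was read beside its partners, and the table does not say how many reads crossed a junction.

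**Figure D1:**
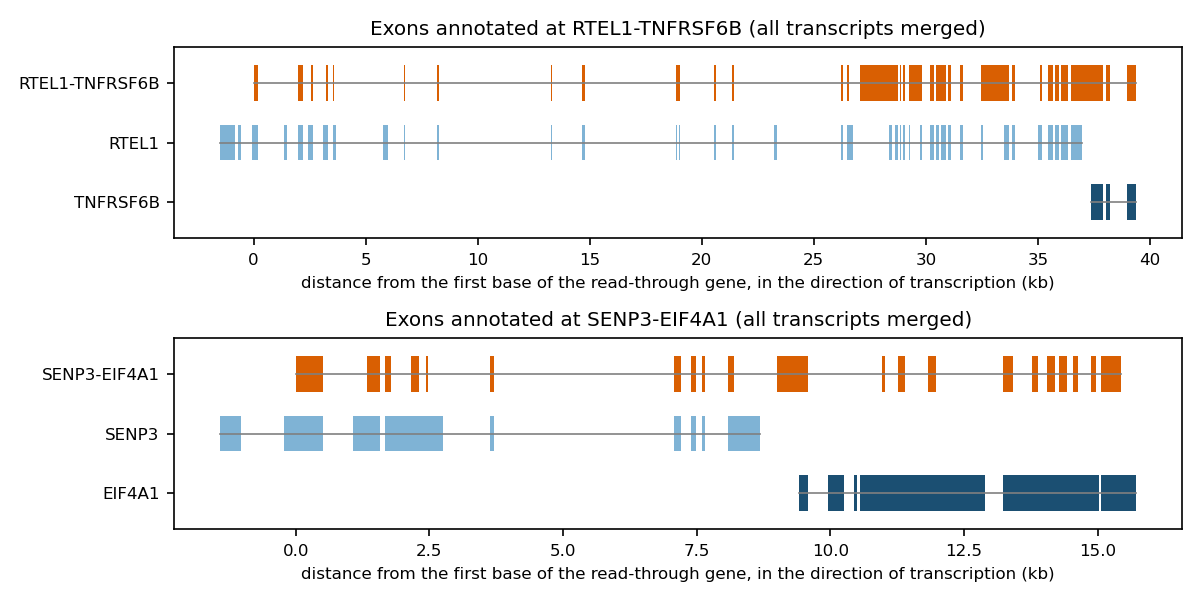
Exons of RTEL1-TNFRSF6B and SENP3-EIF4A1 and of their partners in GENCODE release 29, drawn as distance in kb from the first base of the read-through gene. Each row is 1 gene, and blocks are exons merged over its transcripts. Exons of both partners recur in the read-through gene, which at the first locus covers 100% of the TNFRSF6B exons and at the second 29.8% of the EIF4A1 exons.

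Read-through genes carried a small part of each library. Their summed TPM was 998 in H1299 siCDH3 and 1046 in H1299 siCTR, or 0.0998% and 0.105% of all TPM. In HCC827 the sums were 789 in siCDH3 and 728 in siCTR, or 0.0789% and 0.0728%. The median member had 3.60, 3.82, 3.03 and 3.17 TPM in H1299 siCDH3, H1299 siCTR, HCC827 siCDH3 and HCC827 siCTR. Of the 81, 42 reached 1 TPM in all 4 libraries and 11 in exactly 1. A member made up a median of 9.37% of the TPM summed over itself and its partners in H1299 siCDH3, 7.92% in H1299 siCTR, 7.29% in HCC827 siCDH3 and 7.88% in HCC827 siCTR. It made up at least 50% at 8, 7, 5 and 6 loci.

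The highest member by mean TPM, RPL36A-HNRNPH2, joins a ribosomal protein gene to a gene of an hnRNP splicing regulator. It had 179.5 TPM in H1299 siCDH3, 110.4 in H1299 siCTR, 162 in HCC827 siCDH3 and 191 in HCC827 siCTR. NME1-NME2 joins 2 nucleoside diphosphate kinase genes and had 166 TPM in H1299 siCDH3, 137 in H1299 siCTR, 54.8 in HCC827 siCDH3 and 85.1 in HCC827 siCTR. RPL36A, RPL17 and RPS10 have many pseudogene copies, and NME1 and NME2 are close copies of each other, so the division of their reads is uncertain. ANKHD1-EIF4EBP3, which joins an ankyrin repeat gene to a gene of an eIF4E-binding translation repressor, had 76.2, 95.3, 30.2 and 26.6 TPM in H1299 siCDH3, H1299 siCTR, HCC827 siCDH3 and HCC827 siCTR. Its share of the TPM of its locus was 63.1% in H1299 siCDH3 and 59.0% in H1299 siCTR. In HCC827 the share was 48.6% in siCDH3 and 54.1% in siCTR. Of its exonic bases, 74.1% lie in exons of ANKHD1. The remaining members among the 12 with the highest means, TMEM189-UBE2V1, RPL17-C18orf32, SENP3-EIF4A1, PPAN-P2RY11, DNAJC25-GNG10, TMEM256-PLSCR3, ABHD14A-ACY1, INO80B-WBP1 and RNASEK-C17orf49, had mean TPM from 57.5 down to 16.1.

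**Figure D2:**
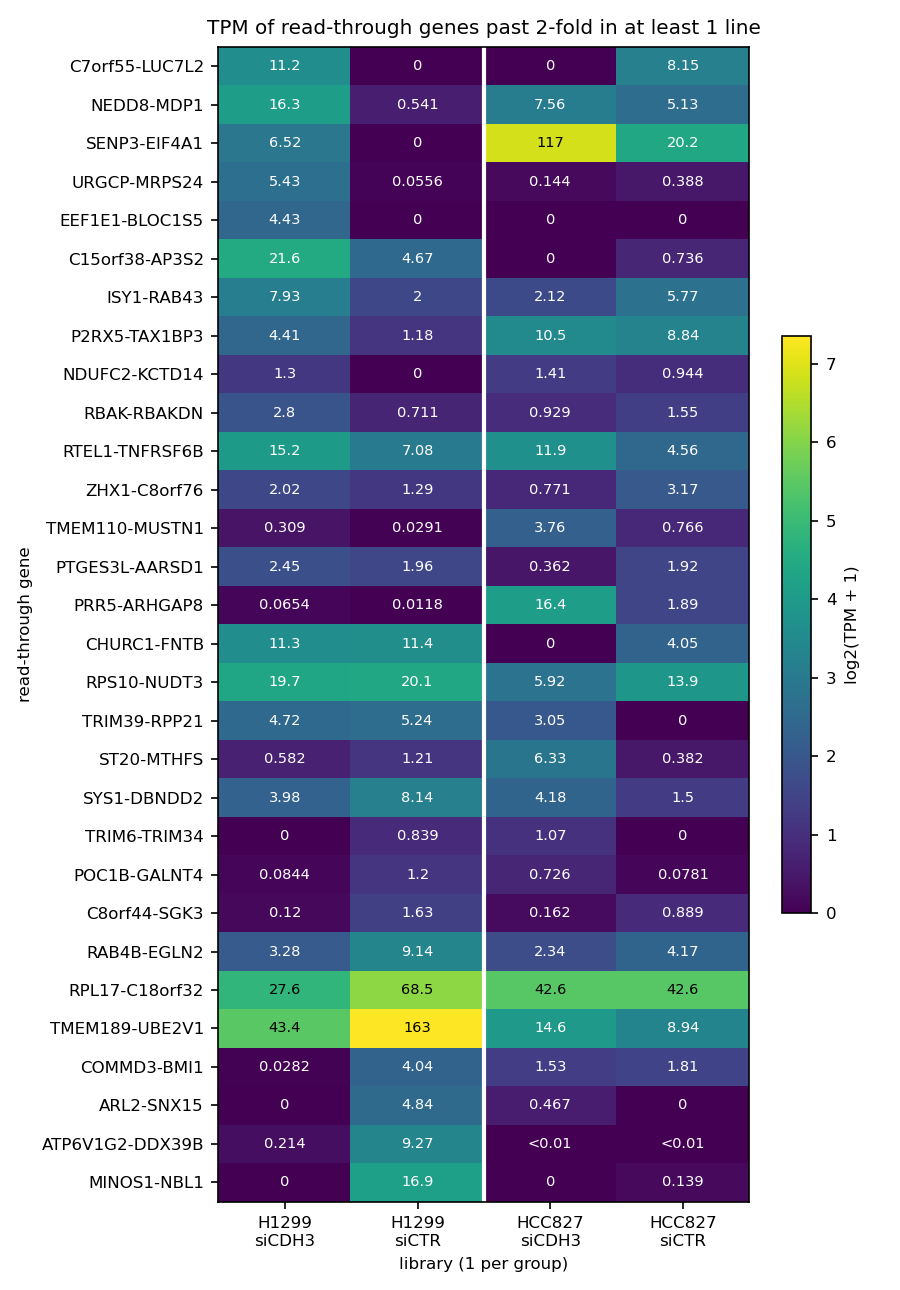
TPM of the 30 read-through genes past 2-fold in at least 1 line, coloured by log2(TPM + 1) and printed in each cell, with 1 row per gene and 1 column per library (siCDH3 left of siCTR in each line). Several rows are bright in 1 library of a line and near 0 in the other, as for C7orf55-LUC7L2, at 11.2 TPM in H1299 siCDH3 and 8.15 in HCC827 siCTR and listed at 0 in the other 2.

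Within each line, a larger share of read-through genes than of all genes tested was past 2-fold between siCDH3 and siCTR, with members higher and members lower. Changes are given as the log2 ratio of TPM + 1, siCDH3 over siCTR, for genes with at least 1 TPM in at least 1 library of the line. The added 1 understates the change of low genes, and where a library is listed at 0 the ratio depends on it. In H1299, 20 of 74 members were past 2-fold, 11 higher and 9 lower in siCDH3, which is 27.0% of members, against 3.33% of all genes tested (1.41% higher and 1.91% lower). In HCC827, 14 of 64 were past 2-fold, 8 higher and 6 lower, which is 21.9%, against 2.39% of all genes (1.24% higher and 1.15% lower). The median log2 ratio of members was 0.10 in H1299 and -0.08 in HCC827, against -0.10 and 0.02 for all genes tested, so the median lay near 0 in both lines. The median size of the log2 ratio, whatever its sign, was 0.50 in H1299 and 0.39 in HCC827, against 0.23 and 0.15 for all genes.

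Many members were low, so the counts were also set out by level. Among members with a mean of 1 to under 10 TPM in the line, 13 of 44 were past 2-fold in H1299 and 12 of 47 in HCC827, against 3.87% and 2.82% of all genes of that level. Among members with a mean of at least 10 TPM, 4 of 23 and 1 of 14 were past 2-fold, against 1.94% and 1.38%. Members under 0.1 TPM in one library of a line and at least 1 TPM in the other numbered 9 in H1299 and 4 in HCC827, against 0.906% and 0.615% of all genes tested.

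SENP3-EIF4A1 and RTEL1-TNFRSF6B were past 2-fold and higher in siCDH3 in both lines. SENP3 encodes a SUMO protease of the nucleolus and EIF4A1 the RNA helicase of the translation initiation complex, and the joined transcript is an NMD candidate. SENP3-EIF4A1 (ENSG00000277957) had 6.52 TPM in H1299 siCDH3 and was listed at 0 in H1299 siCTR, and it had 117 TPM in HCC827 siCDH3 against 20.2 TPM in HCC827 siCTR (log2 ratios 2.91 and 2.47). SENP3 had 65.0 and 69.4 TPM in H1299 siCDH3 and siCTR, and 45.3 and 89.6 TPM in HCC827 siCDH3 and siCTR. EIF4A1 had 316 and 325 TPM in H1299 siCDH3 and siCTR, and 297 and 355 TPM in HCC827 siCDH3 and siCTR. In HCC827 the difference, siCDH3 minus siCTR, was 96.5 TPM for the read-through gene and -102 TPM for its partners together. The sum over the 3 genes was 458 TPM in HCC827 siCDH3 and 464 TPM in HCC827 siCTR. With each gene weighted by the median length of its annotated transcripts, the log2 ratio of the same sum was 0.81 in HCC827 and 0.08 in H1299. These medians were 3519 bases for SENP3-EIF4A1, 656.5 for SENP3 and 642 for EIF4A1. They need not be the lengths of the transcripts expressed, so the weighted sums depend on this choice.

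RTEL1 encodes a helicase that protects telomeres, and TNFRSF6B encodes decoy receptor 3, a secreted receptor that binds FAS ligand. RTEL1-TNFRSF6B (ENSG00000026036) had 15.2 TPM in H1299 siCDH3 and 7.08 in H1299 siCTR, and 11.9 TPM in HCC827 siCDH3 and 4.56 in HCC827 siCTR (log2 ratios 1.003 and 1.21). RTEL1 had 10.05 and 8.45 TPM in H1299 siCDH3 and siCTR, and 3.95 and 3.43 TPM in HCC827 siCDH3 and siCTR. TNFRSF6B stood at 0.00849 TPM in H1299 siCDH3 and 0.00493 TPM in HCC827 siCDH3, against 80.8 TPM in H1299 siCTR and 108 TPM in HCC827 siCTR. All exonic bases of TNFRSF6B lie in exons of RTEL1-TNFRSF6B, so reads of one can be given to the other. This was the 1 locus whose sum was also past 2-fold among those of the changed members, in each line. The sum was 25.3 TPM in H1299 siCDH3 and 96.3 in H1299 siCTR, and 15.8 in HCC827 siCDH3 and 116 in HCC827 siCTR. The read-through share was 60.2% in H1299 siCDH3 and 7.36% in H1299 siCTR, and 75.0% in HCC827 siCDH3 and 3.94% in HCC827 siCTR. Weighted by median annotated transcript length, the log2 ratio of the sum was -0.49 in H1299 and -1.01 in HCC827. These lengths were 5751 bases for RTEL1-TNFRSF6B, 1339 for RTEL1 and 1141 for TNFRSF6B.

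C7orf55-LUC7L2 and ISY1-RAB43 were past 2-fold in opposite directions in the lines. C7orf55, listed in the table as FMC1, encodes an assembly factor of mitochondrial ATP synthase, and LUC7L2 encodes a U1 snRNP-associated splicing factor. C7orf55-LUC7L2 (ENSG00000269955) had 11.2 TPM in H1299 siCDH3 and was listed at 0 in H1299 siCTR, and it was listed at 0 in HCC827 siCDH3 and had 8.15 TPM in HCC827 siCTR (log2 ratios 3.61 and -3.19). LUC7L2 had 71.6 and 95.6 TPM in H1299 siCDH3 and siCTR, and 55.2 and 59.9 TPM in HCC827 siCDH3 and siCTR. ISY1 is a spliceosome component and RAB43 a small GTPase of membrane traffic. ISY1-RAB43 (ENSG00000261796) had 7.93 TPM in H1299 siCDH3 and 1.998 in H1299 siCTR, and 2.12 in HCC827 siCDH3 and 5.77 in HCC827 siCTR (log2 ratios 1.57 and -1.12). C7orf55-LUC7L2 and ISY1-RAB43 have no exonic base outside their partners and 1 junction of their own.

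**Figure D3:**
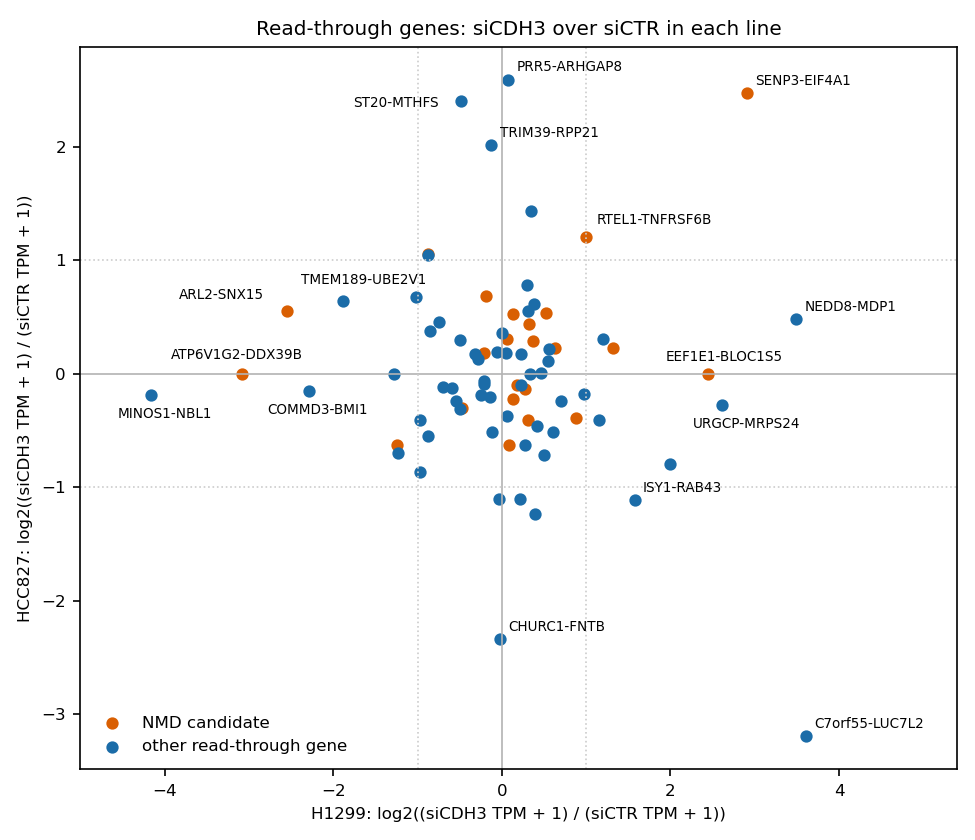
Log2 ratio of TPM + 1, siCDH3 over siCTR, in H1299 (x axis) and HCC827 (y axis) for each of the 81 read-through genes, without the line-wise minimum. Orange points are NMD candidates, blue points are the others, and dotted lines mark 2-fold. SENP3-EIF4A1 and RTEL1-TNFRSF6B lie past 2-fold at the upper right, C7orf55-LUC7L2 and ISY1-RAB43 at the lower right, and most other changed genes lie near 1 axis.

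Over the lines, 57 members passed the TPM minimum in both, and 34 of these had the same sign in both, against 50.5% of all genes tested. Being past 2-fold in both lines held for 4 members, against 0.52% of all genes (0.3% in the same direction and 0.22% in opposite directions). Members past 2-fold in at least 1 line numbered 30. limma, fitted to log2(TPM + 1) of 18049 genes with cell line as a block, treats the lines as replicates and leaves 1 residual degree of freedom. It called 0 of the 81 members at a Benjamini-Hochberg adjusted p of 0.05, with 13 at an unadjusted p under 0.05, beside 767 of 18049 genes. Among the 81 members, SENP3-EIF4A1 had the lowest adjusted p in limma, at 0.233 (log2 2.69, SE 0.19), followed by RTEL1-TNFRSF6B at 0.766 (log2 1.11, SE 0.17). CKLF-CMTM1, which starts in a chemokine-like factor gene, came next at an adjusted p of 0.853 in limma (log2 -0.92, SE 0.16). CKLF-CMTM1 had 1.78 TPM in H1299 siCDH3 and 4.46 in H1299 siCTR, and 4.86 in HCC827 siCDH3 and 9.64 in HCC827 siCTR. Both siCDH3 libraries were thus below the siCTR library of their line, without passing 2-fold in TPM + 1. In TPM alone, H1299 siCDH3 stood at 0.399 of H1299 siCTR, which is past 2-fold. The 1 gene that limma called was the partner TNFRSF6B (log2 -6.55, SE 0.19, adjusted p 0.0113).

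The other members past 2-fold in H1299 and higher in siCDH3 join genes of varied function. NEDD8-MDP1, which joins the gene of a ubiquitin-like modifier to that of a phosphatase, had 16.3 TPM in H1299 siCDH3 and 0.541 in H1299 siCTR, with 7.56 and 5.13 TPM in HCC827 siCDH3 and siCTR. Its partner NEDD8 had 165 TPM in H1299 siCDH3 and 169 in H1299 siCTR, and MDP1 had 5.50 and 8.26 TPM. URGCP-MRPS24, whose downstream partner encodes a mitochondrial ribosomal protein, had 5.43 TPM in H1299 siCDH3 and 0.0556 in H1299 siCTR. The siCDH3 library thus held the higher level of both. In HCC827, NEDD8-MDP1 was not past 2-fold and URGCP-MRPS24 was under 1 TPM in both libraries. EEF1E1-BLOC1S5, an NMD candidate that joins genes of a tRNA synthetase complex factor and a lysosome-related organelle factor, had 4.43 TPM in H1299 siCDH3 and was listed at 0 in the other 3 libraries. C15orf38-AP3S2 joins ARPIN, an inhibitor of the actin-branching Arp2/3 complex, to an AP-3 adaptor subunit, and had 21.6 TPM in H1299 siCDH3 and 4.67 in H1299 siCTR. It was listed at 0 in HCC827 siCDH3 and had 0.736 TPM in HCC827 siCTR. P2RX5-TAX1BP3 starts in an ATP-gated channel gene, NDUFC2-KCTD14 in a respiratory complex I gene and RBAK-RBAKDN in a zinc finger repressor gene. Their log2 ratios in H1299 were 1.31 for P2RX5-TAX1BP3, 1.20 for NDUFC2-KCTD14 and 1.15 for RBAK-RBAKDN. FAM47E-STBD1, next by ratio, had 0.965 TPM in H1299 siCDH3 and so was under the TPM minimum in that line.

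Of the 9 members lower in siCDH3 in H1299, MINOS1-NBL1 had the lowest log2 ratio (-4.16). It joins a gene of mitochondrial crista organisation to the gene of a secreted BMP antagonist, and was listed at 0 in H1299 siCDH3 with 16.9 TPM in H1299 siCTR. In HCC827 it was listed at 0 in siCDH3 and had 0.139 TPM in siCTR, so 1 of the 4 libraries held nearly all of it. ATP6V1G2-DDX39B, an NMD candidate that ends in an mRNA export helicase gene, had 0.214 TPM in H1299 siCDH3 and 9.27 in H1299 siCTR. ARL2-SNX15, an NMD candidate that joins a tubulin-folding GTPase gene to a sorting nexin gene, was listed at 0 in H1299 siCDH3 and had 4.84 TPM in H1299 siCTR. COMMD3-BMI1, which ends in a Polycomb group gene, had 0.0282 TPM in H1299 siCDH3 and 4.04 in H1299 siCTR, while BMI1 itself had 18.4 and 37.8 TPM. These low members were each near 0 in H1299 siCDH3, and C8orf44-SGK3 (-1.23) and POC1B-GALNT4 (-1.02) also lay near 0 there, at 0.12 and 0.0844 TPM.

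The largest change in TPM among the lower members of H1299 was that of TMEM189-UBE2V1. TMEM189 encodes the desaturase that makes plasmalogen lipids, and UBE2V1 a ubiquitin-conjugating enzyme variant that acts in lysine-63 chains. TMEM189-UBE2V1 (ENSG00000124208) had 43.4 TPM in H1299 siCDH3 and 163 in H1299 siCTR (log2 ratio -1.89), and 14.6 in HCC827 siCDH3 and 8.94 in HCC827 siCTR (0.65). UBE2V1 had 202 TPM in H1299 siCDH3 and 110.1 in H1299 siCTR, and 164 and 159.8 TPM in HCC827 siCDH3 and siCTR. In H1299 the difference, siCDH3 minus siCTR, was -119.6 TPM for the read-through gene and 96.8 TPM for its partners together. The sum over the locus was 260.3 TPM in H1299 siCDH3 and 283 in H1299 siCTR (log2 ratio -0.12). Weighted by median annotated transcript length, its log2 ratio was -0.77. RPL17-C18orf32, which starts in a ribosomal protein gene, had 27.6 TPM in H1299 siCDH3 and 68.5 in H1299 siCTR, and 42.6 TPM in both HCC827 libraries. RAB4B-EGLN2, an NMD candidate that ends in an oxygen-sensing prolyl hydroxylase gene, had 3.28 TPM in H1299 siCDH3 and 9.14 in H1299 siCTR. In HCC827 it had 2.34 TPM in siCDH3 and 4.17 in siCTR, lower in siCDH3 again but not past 2-fold.

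In HCC827 the highest log2 ratio was that of PRR5-ARHGAP8 (2.59), which joins the gene of an mTORC2 component to that of a GTPase-activating protein. PRR5-ARHGAP8 (ENSG00000248405) had 16.4 TPM in HCC827 siCDH3 and 1.89 in HCC827 siCTR, with 0.0654 and 0.0118 TPM in H1299 siCDH3 and siCTR. ARHGAP8 had 15.4 TPM in HCC827 siCDH3 and 36.2 in HCC827 siCTR, and PRR5 had 3.52 and 6.20 TPM. Both partners were thus lower where the read-through gene was higher, and its share of the locus was 46.4% in HCC827 siCDH3 and 4.27% in HCC827 siCTR. ST20-MTHFS, whose downstream partner encodes a folate enzyme, had 6.33 TPM in HCC827 siCDH3 and 0.382 in HCC827 siCTR, while MTHFS had 37.9 and 60.1 TPM. TRIM39-RPP21, which joins a ubiquitin ligase gene to an RNase P subunit gene, had 3.05 TPM in HCC827 siCDH3 and was listed at 0 in HCC827 siCTR. In H1299 it stood at 4.72 TPM in siCDH3 and 5.24 in siCTR, so it was listed at 0 in HCC827 siCTR and stood above 3 TPM in the other 3 libraries. TMEM110-MUSTN1 (1.43), SYS1-DBNDD2 (1.05) and TRIM6-TRIM34 (1.05) were the other higher members in HCC827. SYS1-DBNDD2 was lower in siCDH3 in H1299, at 3.98 TPM in siCDH3 and 8.14 in siCTR, and stood at 4.18 in HCC827 siCDH3 and 1.497 in HCC827 siCTR.

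Lower in HCC827 siCDH3 was CHURC1-FNTB, which ends in the gene of the farnesyltransferase beta subunit. It was listed at 0 in HCC827 siCDH3 and had 4.05 TPM in HCC827 siCTR, while H1299 siCDH3 and siCTR had 11.3 and 11.4 TPM. RPS10-NUDT3, which joins a ribosomal protein gene to an inositol phosphate hydrolase gene, had 5.92 TPM in HCC827 siCDH3 and 13.9 in HCC827 siCTR, and 19.7 and 20.1 TPM in H1299 siCDH3 and siCTR. Both members were thus nearly level between the H1299 libraries. ZHX1-C8orf76 had 0.771 TPM in HCC827 siCDH3 and 3.17 in HCC827 siCTR. PTGES3L-AARSD1 had 0.362 TPM in HCC827 siCDH3 and 1.92 in HCC827 siCTR. The next lowest, CKLF-CMTM1 (-0.86), did not pass 2-fold, and C15orf38-AP3S2 was under the TPM minimum in HCC827.

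Of partners with at least 1 TPM, 9 of 142 were past 2-fold in H1299 (3 higher and 6 lower in siCDH3), which is 6.34%, against 3.33% of all genes tested. In HCC827, 10 of 142 partners were past 2-fold (4 higher and 6 lower), which is 7.04%, against 2.39% of all genes. Their median size of log2 ratio was 0.27 in H1299 and 0.15 in HCC827. For the members past 2-fold, the partners' summed TPM differed in the opposite direction at 16 of 20 loci in H1299 and 14 of 14 in HCC827. Opposite differences also occurred at loci of members not past 2-fold, where they were not counted. The 16 of 20 and 14 of 14 thus have no share beside them, and do not set these loci apart from the others. Examples are PPAN-P2RY11 in H1299 (-14.1 TPM for the member and 14.1 for its partners) and NME1-NME2 in HCC827 (-30.3 and 30.0). The summed TPM of a locus had a smaller log2 ratio than its member at 52 of 74 loci in H1299 and 52 of 64 in HCC827, and the median size of the sum's ratio was 0.18 and 0.12. Among loci of members past 2-fold, the sum was past 2-fold at 1 of 20 in H1299 and 1 of 14 in HCC827. Partners hold most of the TPM at most loci, so a sum would move less than the member by arithmetic also if they were unrelated. Weighted by median annotated transcript length, the sum was past 2-fold at 0 of 19 loci of members past 2-fold in H1299 and 1 of 14 in HCC827. In bulk RNA, fewer cells with a transcript and less of it per cell cannot be told apart.

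**Figure D4:**
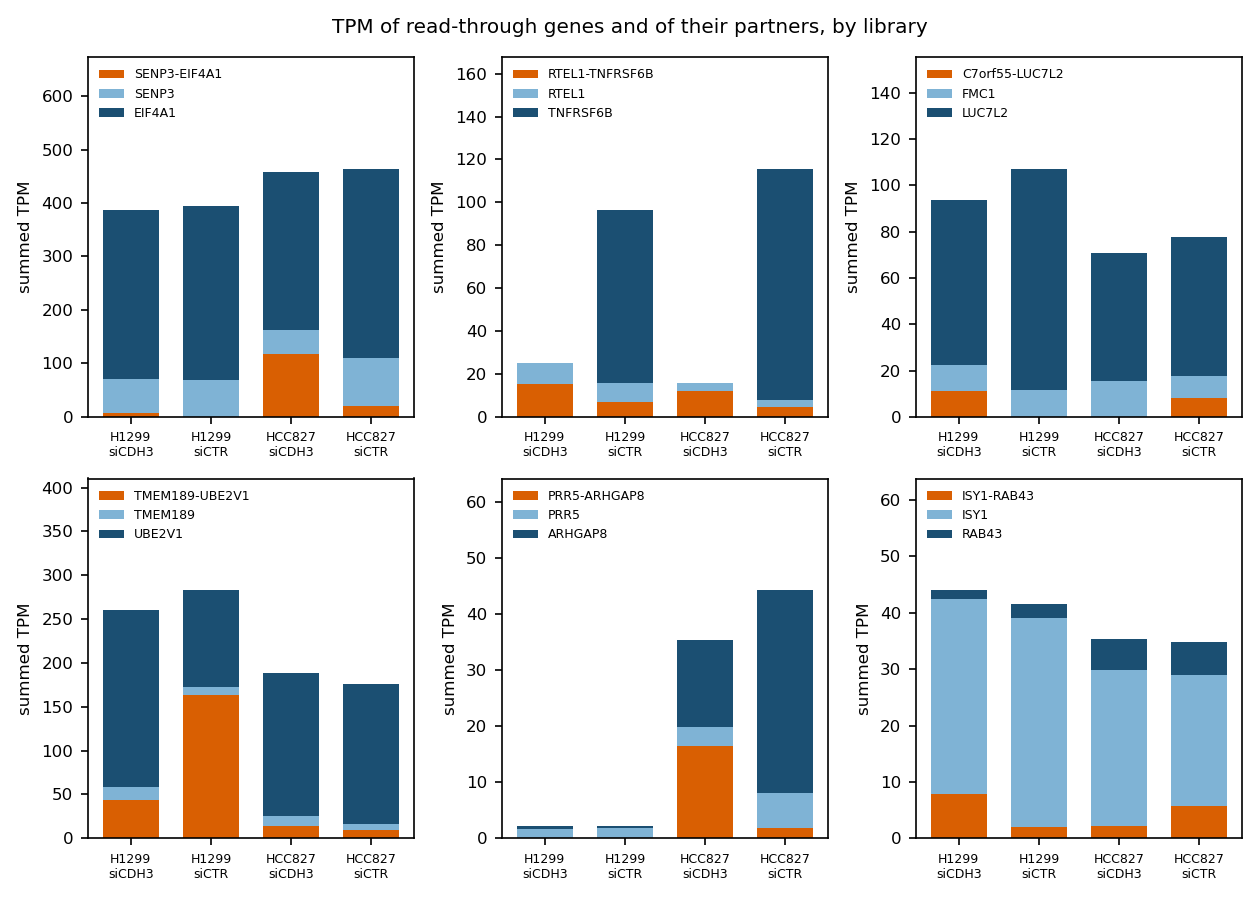
TPM of the read-through gene (orange) and of its partners at 6 loci in each library (siCDH3 left of siCTR in each line), with partners labelled by name and C7orf55 by its current name FMC1. At SENP3-EIF4A1 the 2 HCC827 bars reach 458 TPM in siCDH3 and 464 in siCTR while the orange part is 117 and 20.2, and at RTEL1-TNFRSF6B the TNFRSF6B part, under 0.1 TPM in siCDH3, shows in the siCTR bars.

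**Figure D5:**
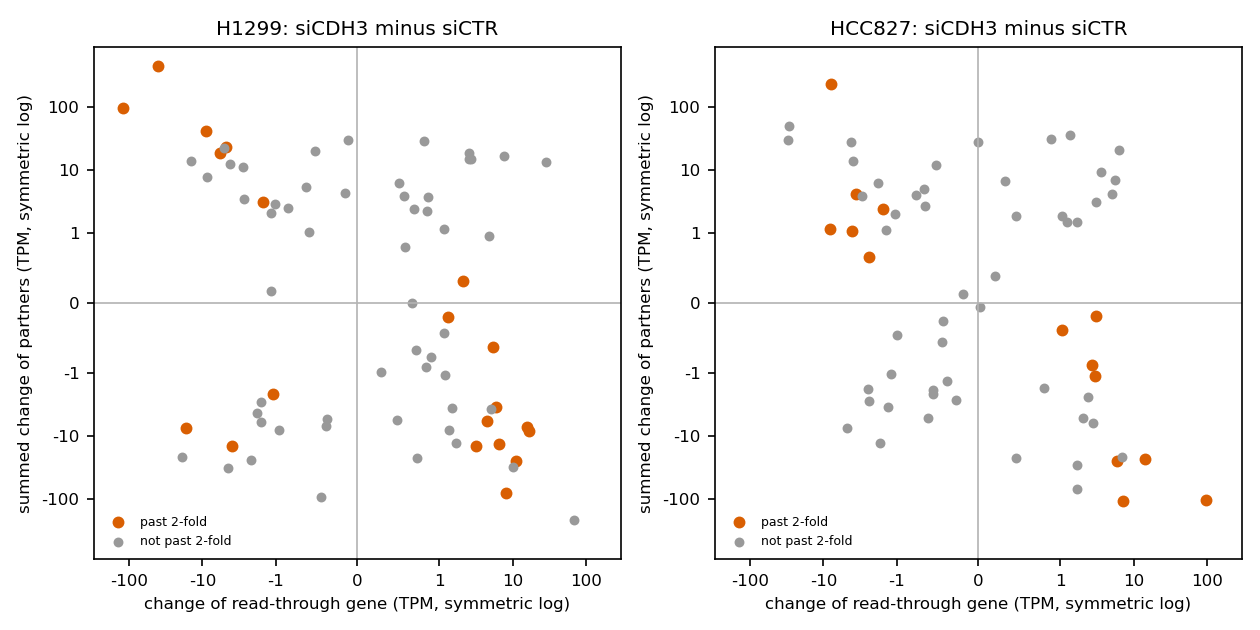
Difference in TPM, siCDH3 minus siCTR, of each read-through gene (x axis) and of its partners summed (y axis), on symmetric log axes, for H1299 (left) and HCC827 (right). Orange points are past 2-fold. In HCC827 the 14 orange points lie at the upper left and lower right, where member and partners differ in opposite directions, as do 16 of 20 in H1299. Some of the grey points, not past 2-fold, lie there as well in both lines and were not counted, so these counts have no share beside them.

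How much of a member is its own was set beside its change. In H1299, members with under 10% of exonic bases unshared had a median size of log2 ratio of 0.55 with 15 of 50 past 2-fold, and members with at least 10% unshared had 0.40 with 4 of 23. In HCC827 the same values were 0.40 with 9 of 42, and 0.27 with 5 of 22. Across genes, which are not independent replicates and share their libraries, Spearman's correlation between percent unshared and the size of the log2 ratio was -0.28 over 73 members in H1299 and -0.15 over 64 in HCC827. NMD candidates were past 2-fold in 7 of 21 cases in H1299 and 3 of 17 in HCC827, against 13 of 53 and 11 of 47 other members. Their median log2 ratio was 0.28 in H1299 and 0.23 in HCC827, against -0.03 and -0.11 for other members, and this difference was not tested. The mark comes from the gene descriptions and differs from the transcript annotation at some members. MINOS1-NBL1 and ABHD14A-ACY1 lack it, yet 3 of 3 and 23 of 29 of their transcripts are annotated as NMD transcripts. Some marked members have 0 such transcripts.

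Lists of genes whose products cleave the RNA, end transcription or degrade RNA were counted in the same way, beside the 3.33% in H1299 and 2.39% in HCC827 of all genes tested. At list sizes of 16 to 23 genes these shares come to less than 1 gene, so the counts do not stand apart from them. Of 23 cleavage and polyadenylation genes, 0 were past 2-fold in H1299 and 1 in HCC827, with median log2 ratios of -0.12 and 0.08. That gene, PPP1CB, encodes a phosphatase catalytic subunit that also acts outside 3' end formation, and had 150.06 TPM in HCC827 siCDH3 and 53.1 in HCC827 siCTR. The lowest ratio in H1299 was that of the poly(A) polymerase gene PAPOLG, with 10.6 TPM in siCDH3 and 18.9 in siCTR, and CPSF6, of the cleavage factor Im complex, was highest there at 0.54 and lowest in HCC827 at -0.71. Of 20 termination genes, 0 were past 2-fold in either line. Their medians were -0.15 in H1299 and 0.05 in HCC827, and their extremes were ZC3H4 at 0.65 and SCAF4 at -0.50 in H1299, and RPRD1B at 0.74 and PPP1R10 at -0.43 in HCC827. Of 16 U1 snRNP and Sm genes, 0 were past 2-fold in either line, with medians of -0.07 in H1299 and HCC827. U1 snRNP shields nascent RNA from early cleavage. LUC7L3 was highest in H1299 at 0.22, and SNRPD2 was lowest in HCC827 at -0.19.

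Of 20 NMD genes, 0 were past 2-fold in either line, with medians of -0.05 in H1299 and 0.01 in HCC827. The NMD extremes were MAGOHB, of the exon junction complex, at 0.32 and the translation release factor gene GSPT1 at -0.64 in H1299, with the same 2 genes in reverse in HCC827, GSPT1 at 0.57 and MAGOHB at -0.55. Of 17 nuclear exosome genes, 0 were past 2-fold in either line, with medians of -0.14 in H1299 and 0.04 in HCC827. EXOSC3, an exosome core subunit, was highest in both lines. It had 17.1 TPM in H1299 siCDH3 and 8.43 in H1299 siCTR, and 14.9 in HCC827 siCDH3 and 8.23 in HCC827 siCTR, with log2 ratios of 0.94 and 0.78. Lowest were EXOSC6 at -0.54 in H1299 and SKIV2L2, the helicase of the nuclear exosome, at -0.14 in HCC827. These counts carry no error, because each line has 1 library per group.

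The lines also differed from each other under the control siRNA, with cell line and library not to be told apart. Of 75 members compared, HCC827 siCTR was past 2-fold above H1299 siCTR for 9, against 14.8% of all genes tested, and past 2-fold below it for 21, against 26.6%. Both counts are near the shares of all genes, so they do not set read-through genes apart. The median log2 ratio was -0.50 for members and -0.35 for all genes tested. The members with the lowest and highest ratios here were chosen after their values were seen. TMEM189-UBE2V1 had 8.94 TPM in HCC827 siCTR and 163 TPM in H1299 siCTR (log2 ratio -4.04), MINOS1-NBL1 had 0.139 and 16.9 TPM, and SENP3-EIF4A1 had 20.2 TPM in HCC827 siCTR and was listed at 0 in H1299 siCTR. These also differed within a line between siCDH3 and siCTR. SAA2-SAA4, which joins 2 serum amyloid A genes, had 21.1 TPM in HCC827 siCTR and was listed at 0 in H1299 siCTR.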

How the data were processed

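RNA sequencing was measured in 4 libraries, with 1 per group. The authors deposited TPM per gene, with no pooling. The genome build is hg19, per the submitters' processing notes; for the aligner, counter, strand setting and depth, nothing is given in the sources used here. Other columns of sample values numbered 0.

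The log2 ratio of TPM + 1 was taken within each line for genes with at least 1 TPM in at least 1 library of the line, and counted at 2-fold. limma 3.58.1 (R 4.3.3) was fitted over all 4 libraries to genes reaching 1 TPM in any of them. Cell line, as labelled, was the block, and p-values were adjusted by Benjamini-Hochberg over all genes. The code was checked on simulated data.

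Of 165 name parts, 161 matched a partner by name, 3 by RefSeq synonym and 1 was not matched. Exons and junctions are from GENCODE release 29 (GRCh38), which need not be the annotation the authors used. RefSeq gave start positions.

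Named genes are, in each line, the 12 members with the highest and the 12 with the lowest ratio, members past 2-fold in both lines, the 12 highest mean TPM and the rows nearest the TPM minimum; of the gene lists, members past 2-fold or the extremes. A gene taken by the rule is not reported here. The members and lists were chosen with earlier results of these data known. Alternatives were pseudocounts, filters, fold sizes, scalings, limma settings, leaving out each library, and, added later, length weighting and a minimum of unshared bases.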

Additional observations from a re-analysis of the deposited data

Results flagged for a closer look

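C7orf55-LUC7L2 differed in opposite directions in the lines, with a log2 ratio of 3.61 in H1299 and -3.19 in HCC827. ISY1-RAB43 did so as well, with 1.57 in H1299 and -1.12 in HCC827. The TPM summed over member and partners was not past 2-fold at either locus. Its log2 ratios in H1299 and HCC827 were -0.19 and -0.13 at C7orf55-LUC7L2, and 0.08 and 0.02 at ISY1-RAB43. Each line has 1 library per group, so the difference between the lines was not tested.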

How the results depend on the processing

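Of 53 single ratios past 2-fold, 0 of 347 values under the alternatives reversed and 22 ratios stayed past 2-fold in each; of 34 values no longer past it, 31 came with a pseudocount of 5. In H1299, the count of 20 members became 9 with that pseudocount, 12 of 41 with a filter at 5 TPM, 32 at 1.5-fold, 9 at 4-fold and 4 among members with at least 10% unshared bases. In HCC827, the count of 14 became 4, 7 of 37, 22, 6 and 5. With a pseudocount of 5, members past 2-fold were 12.2% and 6.25%, against 0.856% and 0.635% of all genes. All genes in H1299 (536) became 1147 with a pseudocount of 0.1, 138 with 5, 286 with the filter, 2066 at 1.5-fold and 54 at 4-fold. In HCC827 (373) they became 795, 99, 203, 1237 and 45, and 601 without mitochondrially encoded genes.

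Members past 2-fold in both lines (4) became 2 with a pseudocount of 5, 8 at 1.5-fold and 2 at 4-fold. Loci whose sum moved less became 26 of 41 in H1299 and 30 of 37 in HCC827 with the filter, which leaves fewer loci. At 1.5-fold, cleavage genes became 2 in each line, termination genes 1 in each, exosome genes 1 in each and NMD genes 1 in H1299. The HCC827 cleavage count was 0 at 4-fold, and the H1299 exosome count was 1 with a pseudocount of 0.1 or with the median ratio set to 0.

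The single limma call became 0 with a pseudocount of 0.1, no filter, quantile normalization or no replicate block, and without each library in turn (0 to 0, fitted with no replicate block, so a lone library is assumed to vary like the others); members called stayed at 0 in each. The lowest adjusted p of a member in limma ranged from 0.0852 to 1.0. The cause of these shifts was not tested. TPM without depth limits what can be said of low members.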
